A study of Mus musculus with 6 samples.

Results

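The genes described here are P2ry10, P2ry10b, Gpr174 and Lpar6, receptors of the lysophospholipid and nucleotide receptor family. They were found by gene name, present or older, among the 251 probe sets of changed genes in the authors' deposited table, and by transcript accession where the name had changed. Each had 1 probe set there, so the 4 members are 4 probe sets of 35557 on the array. P2ry10 and Gpr174 stand in the table under those names, P2ry10b as A630033H20Rik (NM_175442) and Lpar6 as P2ry5 (NM_175116). The authors' rows had been selected on the difference between the same 2 groups of arrays. That the 4 differ between the groups is therefore how they were chosen. Their values are given as a description, with no test of their own.

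The samples were cultures of a mouse pro-B line that Abelson virus, a murine leukaemia virus, had transformed. Its v-Abl kinase keeps B cell precursors dividing. All cultures carried a retrovirus that encodes Gfi1b, a zinc finger repressor of blood cell precursors, fused to the oestrogen receptor's hormone-binding part. The untreated group (n = 3) received no tamoxifen and the other group (n = 3) was kept in tamoxifen for 12 h, which activates such a fusion. The submitters call the 3 samples of a group biological replicates. Gfi1b itself was not analysed here, as no named row holds it. The labels give 1 cell line and no culture without the fusion, so an effect of tamoxifen itself and one of the active fusion cannot be told apart here.

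Lysophospholipids are membrane lipids that have lost 1 of their fatty acid chains, and outside the cell they act as signals. Lysophosphatidylserine and lysophosphatidic acid (LPA) bind G protein-coupled receptors, which pass the signal to G proteins and from there to cyclic AMP and cell movement. P2ry10 and Gpr174 are receptors for lysophosphatidylserine found mainly on lymphocytes. Lpar6 is a receptor for LPA, known in humans for its part in hair growth. P2ry10b is the mouse gene next to P2ry10 and similar to it. The name P2ry10 and the older name P2ry5 come from a likeness to nucleotide receptors.

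All 4 receptor genes were lower with tamoxifen, P2ry10 by the most and P2ry10b by the least. The values are log2 expression as deposited, where a difference of 1 is a 2-fold change. P2ry10 (probe set 10601416, chromosome X, band D) read 10.01, 10.23 and 10.10 on untreated arrays 1, 2 and 3, and 8.39, 8.36 and 8.36 on tamoxifen arrays 1, 2 and 3. The tamoxifen arrays were almost level with each other, and the groups lay far apart. The group means were 10.11 ± 0.11 and 8.37 ± 0.021 (SD, n = 3 each). The log2 fold change of -1.74 ± 0.071 (SE) left 29.9% of the untreated level on the linear scale.

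Lpar6 (probe set 10416371, chromosome 14, band D3) read 9.94, 10.09 and 9.87 on the untreated arrays and 8.74, 8.49 and 8.56 with tamoxifen. The lowest untreated value was 1.13 above the highest tamoxifen value. Its log2 fold change was -1.37 ± 0.092 (SE), from 9.97 ± 0.11 to 8.60 ± 0.13 (SD, n = 3 each), and 38.7% of the untreated level was left.

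Gpr174 (probe set 10601424, chromosome X, band D) read 8.88, 9.32 and 8.84 untreated and 7.95, 7.75 and 7.80 with tamoxifen. Untreated array 2 stood above the other untreated arrays, and the groups did not overlap. The group means were 9.01 ± 0.27 and 7.83 ± 0.10 (SD, n = 3 each). They differed by a log2 fold change of -1.18 ± 0.14 (SE), with 44.0% of the untreated level left. On the tamoxifen arrays it lay close above the array medians, which ran from 7.52 to 7.61 over all 6 arrays. No measure of background was used here, so how far a level this low can be resolved is not known.

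P2ry10b (probe set 10601421, chromosome X) was the most variable of the 4. It read 8.83, 9.42 and 9.24 untreated and 8.37, 8.08 and 8.55 with tamoxifen. The groups were separate, but the lowest untreated value was just 0.28 above the highest tamoxifen value. The log2 fold change was -0.83 ± 0.18 (SE), from 9.16 ± 0.30 to 8.33 ± 0.24 (SD, n = 3 each), with 56.2% of the untreated level left. Whether the probes of P2ry10 and P2ry10b read each other's transcripts was not tested, since no probe sequence was used here.

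**Figure D1:**
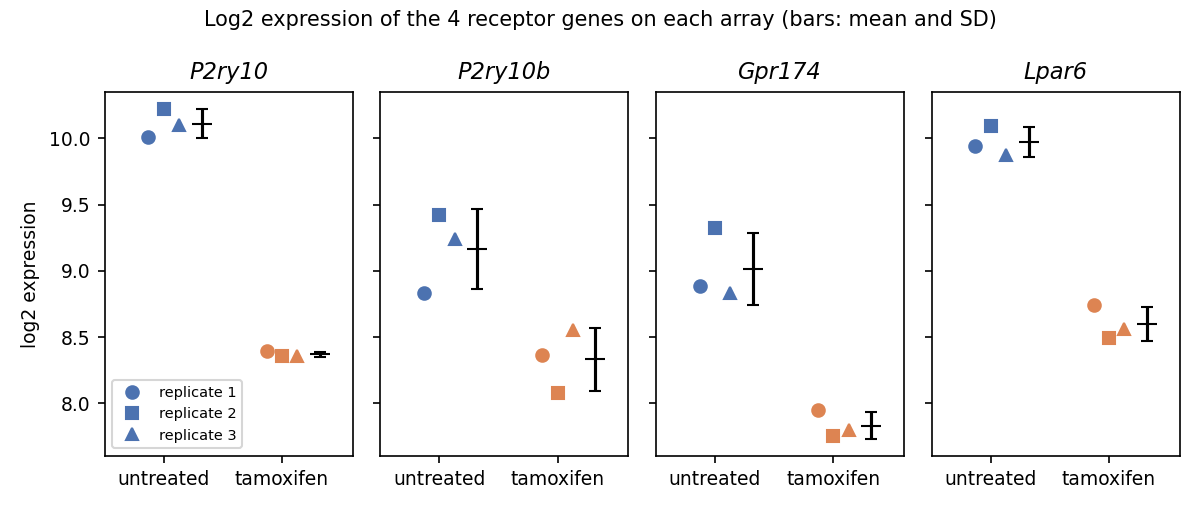
Log2 expression (vertical axis) of P2ry10, P2ry10b, Gpr174 and Lpar6 on the 3 untreated (blue) and 3 tamoxifen (orange) arrays; the shape of a point marks the replicate number and the black bars are mean and SD. The groups are apart for all 4 genes, by 1.62 for P2ry10 and by 0.28 for P2ry10b.

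In the authors' deposited table the signed folds were -3.34 for P2ry10, -2.59 for Lpar6, -2.28 for Gpr174 and -1.78 for P2ry10b. These placed them at ranks 13, 23, 32 and 67 of the 149 rows that were lower there. The smallest fold that the authors' deposited table holds is 1.503 and its largest p is 0.0451, and P2ry10b came nearest to that edge, with a p of 0.0198 in that table.

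Over all 35557 probe sets, limma with Benjamini-Hochberg adjustment called 0.456% lower with tamoxifen at an adjusted p of 0.05. Of the 4 members 3 were among them, namely P2ry10, Lpar6 and Gpr174, while P2ry10b did not pass. Each of these 3 was lower by 2-fold or more, which held for 0.101% of all probe sets among the calls. All 4 had groups that did not overlap, which held in this direction for 7.78% of all probe sets. The median log2 fold change was -1.28 over the members and -0.0092 over all probe sets. Nothing is read from these counts, since the members were taken from rows chosen for this difference. The call of Gpr174 was lost in 5 of 6 leave-one-out fits, the exception being the fit without untreated replicate 2, while its log2 fold change stayed between -1.27 and -1.03. In bulk RNA, fewer cells with a transcript and less of it per cell cannot be told apart.

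The 4 genes shared their highest untreated array. Untreated replicate 2 was the highest untreated array for each of them, by 0.11 above the group mean for P2ry10, 0.12 for Lpar6, 0.26 for P2ry10b and 0.31 for Gpr174. Tamoxifen replicate 2 was the lowest tamoxifen array for 3 of the 4, and for P2ry10 it was level with replicate 3. On the arrays of replicate 3 P2ry10b differed from the others: it was 0.073 above its group mean untreated and 0.22 above it with tamoxifen, where the other 3 genes lay below theirs. Of the other 145 rows that the authors' deposited table gives as lower, untreated replicate 2 was the highest untreated array in 107, against 41.2% of all probe sets. Tamoxifen replicate 2 was the lowest tamoxifen array in 83 of the 145, against 38.8% of all probe sets.

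**Figure D2:**
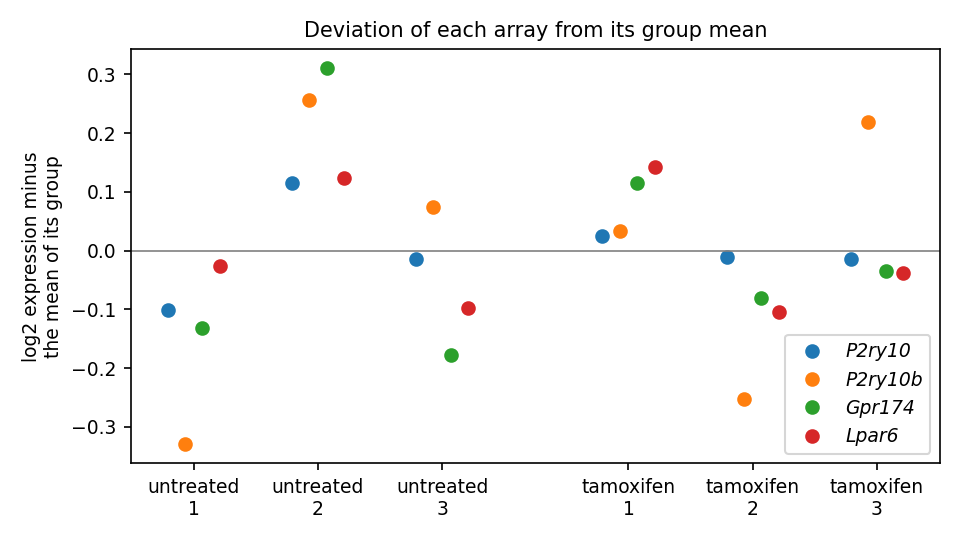
Log2 expression of each receptor gene minus the mean of its own group (vertical axis) on each of the 6 arrays (horizontal axis), 1 colour per gene. All 4 points are above 0 on untreated array 2, and P2ry10b spreads widest in both groups.

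With arrays of the same number set side by side, the fall was largest in replicate 2 for all 4 members. This held for 125 of the other 145 lower rows and for 43.9% of all probe sets. Over the whole array replicate 2 stood apart in another way. In a principal component analysis, 46.0% of the variance lay on an axis where untreated replicates 1 and 3 were at 30.6 and 26.5. Tamoxifen replicates 1 and 3 were at -26.6 and -23.4. Replicate 2 was between them with its signs reversed, untreated at -9.74, on the tamoxifen side, and tamoxifen at 2.67, on the untreated side. Without both arrays of replicate 2 the log2 fold changes were -1.68 for P2ry10, -1.26 for Lpar6, -0.99 for Gpr174 and -0.58 for P2ry10b. With all 6 arrays they were -1.74, -1.37, -1.18 and -0.83, in the same order. The part of replicate 2 in the members' values was not tested further.

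P2ry10, P2ry10b and Gpr174 are neighbours on chromosome X, in that order, with no other protein-coding gene between them in RefSeq. The LPA receptor gene Lpar4 comes before them and Itm2a after, and neither was analysed here. Cysltr1, a receptor for cysteinyl leukotrienes, starts 4 protein-coding genes before P2ry10 and was singled out after its values were seen. It read 11.21, 11.32 and 11.06 untreated and 10.38, 10.23 and 10.22 with tamoxifen, so that its log2 fold change was -0.92 ± 0.088 (SE; limma adjusted p = 0.014). Its call was lost in 4 of the 6 fits without 1 array. Lpar6 lies on chromosome 14 inside the span of the retinoblastoma gene Rb1, between Cysltr2 and Itm2b, the relatives of Cysltr1 and Itm2a. The levels of Rb1, Cysltr2 and Itm2b were not analysed here.

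**Figure D3:**
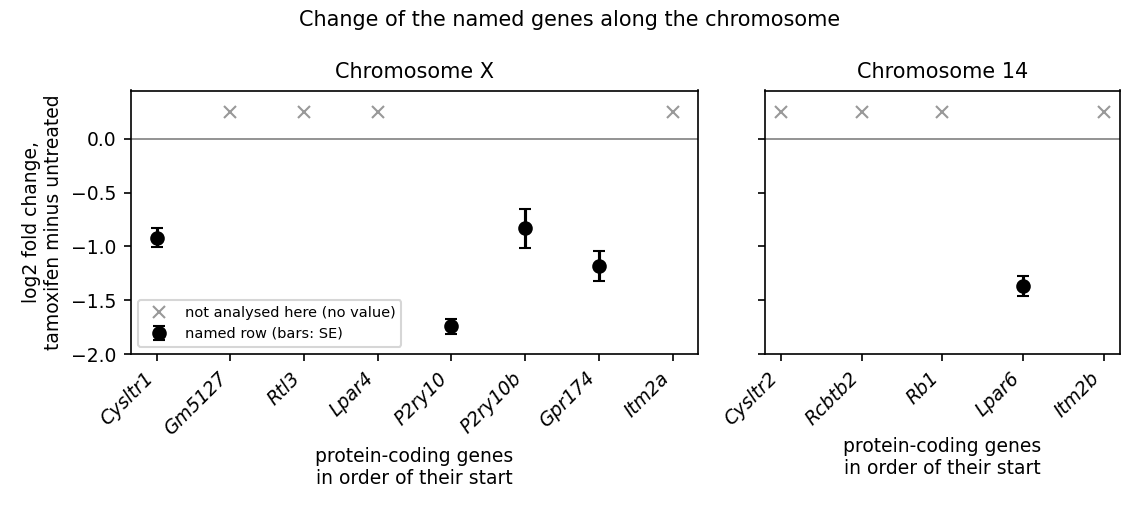
Log2 fold change, tamoxifen minus untreated, with SE (vertical axis) of the protein-coding genes from Cysltr1 to Itm2a on chromosome X and from Cysltr2 to Itm2b on chromosome 14, in order of their start (horizontal axis, not to scale). The 4 named genes of the X segment lie between -1.74 and -0.83, Lpar6 lies at -1.37, and crosses mark genes not analysed here, which have no value. Every gene with a value had been picked by the authors on this contrast, so a shared direction shows nothing about the region. Cysltr1, where the X segment starts, was picked after its values were seen, and P2ry10b was not called.

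Since the 4 transcripts were lower together, the 250 bases ahead of a RefSeq transcription start of each gene are shown, 5′ to 3′ on the strand of the gene (GRCm38.p6). They were searched on both strands for AATC, the core of the sites that Gfi1 family proteins bind, and capitals mark each AATC or its reverse complement GATT. All 4 genes are on the plus strand and had an entry. The windows are chrX:107088242-107088491 for P2ry10, chrX:107148677-107148926 for P2ry10b, chrX:107284096-107284345 for Gpr174 and chr14:73237641-73237890 for Lpar6, each the start listed at the lowest coordinate.
P2ry10: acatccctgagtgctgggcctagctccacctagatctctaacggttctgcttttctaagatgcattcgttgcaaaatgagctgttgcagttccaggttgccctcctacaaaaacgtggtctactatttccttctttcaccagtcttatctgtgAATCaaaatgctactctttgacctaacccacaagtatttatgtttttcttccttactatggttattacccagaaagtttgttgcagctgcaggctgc
P2ry10b: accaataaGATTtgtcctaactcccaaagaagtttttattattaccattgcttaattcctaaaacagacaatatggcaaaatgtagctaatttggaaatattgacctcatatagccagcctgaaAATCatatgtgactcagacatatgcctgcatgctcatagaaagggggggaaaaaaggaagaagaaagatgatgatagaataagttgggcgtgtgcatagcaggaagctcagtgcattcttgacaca
Gpr174: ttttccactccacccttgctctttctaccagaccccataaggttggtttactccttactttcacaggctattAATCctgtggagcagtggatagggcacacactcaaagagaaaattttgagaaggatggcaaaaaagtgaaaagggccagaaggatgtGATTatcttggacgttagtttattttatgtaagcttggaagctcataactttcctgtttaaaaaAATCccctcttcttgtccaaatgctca
Lpar6: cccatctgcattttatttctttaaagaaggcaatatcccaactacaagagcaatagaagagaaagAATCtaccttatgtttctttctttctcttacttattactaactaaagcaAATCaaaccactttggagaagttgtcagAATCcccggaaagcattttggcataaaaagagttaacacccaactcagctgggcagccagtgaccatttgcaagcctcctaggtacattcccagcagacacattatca
The core occurs once ahead of P2ry10, 2 times ahead of P2ry10b and 3 times each ahead of Gpr174 and Lpar6. Of 32851 such windows of 250 bases in the RefSeq table, 69.0% hold at least 1 AATC, 38.7% hold 2 or more and 17.7% hold 3 or more. The longer form AAATCA, which contains the core, was found in the printed windows of P2ry10b and Lpar6, once each, and in 12.4% of all windows. The FoxO site GTAAACA was in none of the 4 printed windows and in 3.17% of all. Further starts are listed for P2ry10 and P2ry10b. The window of the other P2ry10 start holds 3 cores and 1 AAATCA. Those of the other P2ry10b starts hold 4 and 3 cores, and 2 and 1 AAATCA. They overlap each other, so some matches may be counted in both. Of all windows, 7.04% hold 4 or more cores and 1.49% hold 2 or more AAATCA. These shares are for windows taken singly, so the highest count among several starts of a gene is not comparable with them. A match of letters is a description of the sequence and not a binding site.

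Across the 6 arrays the levels of the members ran alike. Pearson's r was 0.99 between P2ry10 and Lpar6, 0.99 between Gpr174 and Lpar6, 0.98 between P2ry10 and Gpr174, and 0.90 to 0.92 for the pairs with P2ry10b. These are descriptions over 6 arrays that share the treatment contrast by which every named gene was chosen. Of 221 other named genes, 100 had an r of 0.95 or more with P2ry10. The 5 most alike were Rag1, which cuts DNA at antigen receptor loci (r = 0.9993), the lymphocyte GTPase Gimap4 (0.9991), the SLAM family receptor Ly9 (0.9988), the oxidase Pipox (0.9978) and the TNF receptor family member Tnfrsf19 (0.9975). Their log2 fold changes ran from -2.43 for Gimap4 to -0.58 for Ly9, so a like pattern did not need a like size. The 3 most opposed were the lysozyme Lyz1 (r = -0.9953), the phosphatase Ptpn6 (-0.9937) and the transcription factor Bhlha15 (-0.9933).

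The genes around these receptors were taken from 9 lists of 101 genes in all, of which 9 genes had a named row, the 4 members and 5 others. No gene of the lists for S1P receptors, for other lipid and proton-sensing receptors, for lysophospholipid metabolism and transport, or for G protein coupling had a name here, and their levels were not analysed here. Of 6 LPA receptors Lpar6 was the 1 with a name, and of 4 genes in the lysophosphatidylserine receptor list 3 had one, the exception being Gpr34. Rgs proteins switch G proteins off, and the 2 named of 9 both fell. Rgs18 went from 10.97 ± 0.11 to 9.08 ± 0.19 (SD, n = 3 each; log2 fold change -1.89 ± 0.11, SE; limma adjusted p = 0.0031) and Rgs16 fell less, with -0.76 ± 0.087 on the same scale (SE; limma adjusted p = 0.022).

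Nucleotide receptors split, with 1 lower and 1 higher of 14. P2ry13, a receptor for ADP, read 7.80, 7.94 and 7.63 untreated and 6.84, 6.73 and 7.02 with tamoxifen (log2 fold change -0.92 ± 0.11, SE; limma adjusted p = 0.024). P2rx1, an ion channel opened by ATP, rose by 1.05 ± 0.12 on the log2 scale (SE; limma adjusted p = 0.023). Cxcr5, the receptor for the chemokine CXCL13 and the 1 named of 14 chemokine receptors, rose by 1.02 ± 0.082 (SE; limma adjusted p = 0.0083). The tamoxifen mean of P2ry13 (6.86) and the untreated means of P2rx1 (6.85) and Cxcr5 (6.86) lay below the array medians of 7.52 to 7.61. P2ry13, P2rx1 and Cxcr5 were left out of the fit without dim probe sets, and how far levels this low can be resolved is not known. Of the 6 fits without 1 array, Rgs18 passed in 6, Cxcr5 in 4, and Rgs16, P2ry13 and P2rx1 in 1 each. The named rows had been picked by the authors on this contrast, so these counts support nothing about a list.

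**Figure D4:**
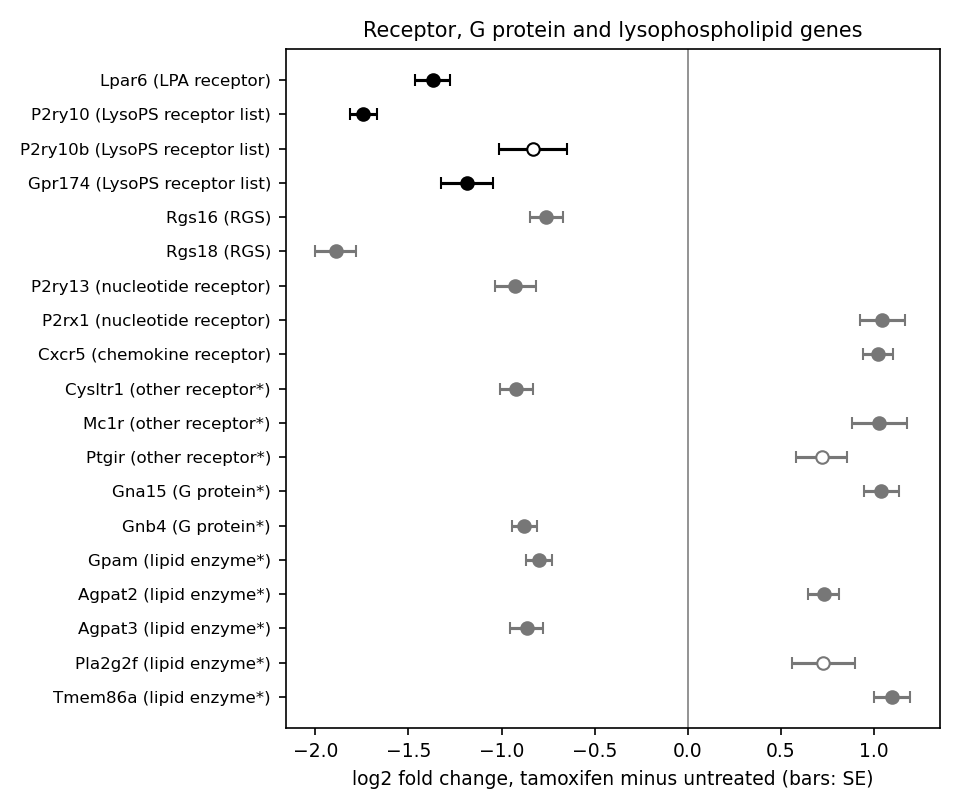
Log2 fold change, tamoxifen minus untreated, with SE (horizontal axis) of the 4 receptor genes (black) and of other named genes of receptors, G proteins and lysophospholipid enzymes (grey); filled points passed a limma adjusted p of 0.05, and an asterisk marks genes picked after their values were seen. The 4 receptor genes in black lie between -1.74 and -0.83; of the other receptors shown, P2ry13 and Cysltr1 lie below 0 and P2rx1, Cxcr5, Mc1r and Ptgir above it.

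Of 12 pro-B cell markers 3 had a name here, Cd79b, Rag1 and Rag2. Cd79b, a chain of the B cell receptor complex, averaged 11.70 untreated and 12.35 with tamoxifen. The other named markers were lower, Rag1 at 11.34 and 9.06 and Rag2 at 8.72 and 6.89 (means of the untreated and the tamoxifen arrays), and the median log2 fold change of the 3 was -1.83. Of 8 myeloid markers the lysozymes Lyz1 and Lyz2 had a name, and their summed level ran from 8.69 to 8.83 untreated and from 9.73 to 9.98 with tamoxifen (log2 of the sum). Of 8 T and NK cell markers 1 had a name, Zap70, which ran from 6.82 to 7.09 and from 7.50 to 7.82, and of 7 erythroid and megakaryocyte markers none had. The part of other cells in the members' values was not tested.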

How the data were processed

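Total RNA of 6 cultures was hybridised to arrays of a single colour. The deposited matrix holds log2 expression per probe set, used as deposited. The submitters' processing notes name Partek, without its role. Background correction, summarisation, normalization, array design and build were not given in the sources used here. A table deposited by the authors gives a p-value and a signed fold, treated as a score in which a fall by n-fold is -n. The members' folds differed from those computed here by at most 0.0044 on the log2 scale.

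Groups and replicate numbers come from the titles. Names were updated through RefSeq GRCm38.p6: 200 rows by accession, 13 by symbol and 19 by synonym, with 8 keeping their deposited name and 11 without one. Where a gene had several rows in the authors' deposited table, the brightest was used. Probe sets outside that table had no name here and were not considered. limma 3.58.1 (R 4.3.3) fitted all 35557 probe sets with 2 groups, with Benjamini-Hochberg adjustment over all of them, and called 154 higher and 162 lower at 0.05; 4529 had an unadjusted p under 0.05. The procedure was tested on simulated data with independent noise for each probe set. That noise held no array-wide pattern like that of replicate 2, so the simulation does not cover such a pattern. The p-values measure the spread between 3 arrays a group, which limits the precision. Figures were drawn with matplotlib 3.10.9.

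Members, lists and alternatives were chosen with earlier results of these data known. The genes named are the members, list genes with a named row, the 5 named genes most and the 3 least correlated with P2ry10, and genes next to a member; those outside this rule are stated as such. The labels state no pairing, so the numbers were not taken to pair arrays. Over all probe sets, deviations of same-numbered arrays correlated at -0.229, -0.45 and -0.0957. These values cannot settle whether cultures were paired, because replicate 2 stood apart over the whole array in both groups.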

Additional observations from a re-analysis of the deposited data

How the results depend on the processing

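None of the 4 members reversed in any of 14 alternatives, of which 1, without the low-numbered probe sets, was added after seeing the data. It left out the probe sets numbered below the lowest one in the authors' deposited table. P2ry10 ran from -1.79 to -1.68 (log2) and passed in all 14, and Lpar6 ran from -1.44 to -1.26 and failed with the replicate block alone (-1.37). Gpr174 failed with the replicate block (-1.18) and in 5 of 6 fits without 1 array (-1.27 to -1.03). P2ry10b, at -0.83, passed without dim probe sets and without the low-numbered ones. These 2 settings test fewer probe sets, and the SE of P2ry10b was also smaller in them, at 0.175 and 0.165 against 0.181. Without 1 array P2ry10b ran from -0.996 to -0.70 and passed in 0. P2ry10 and Lpar6 passed in all 6 such fits, at -1.79 to -1.68 and -1.44 to -1.31. Each member has 1 named probe set, so a mean over probe sets was not run. The members were taken from rows selected on this contrast in these same arrays. Passing in these fits is therefore partly how they were chosen and is no independent support.

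Called probe sets, 154 higher and 162 lower, became 814 and 376 with array weights, 410 and 311 with an intensity trend and robust variance together, 6 and 16 with the replicate block, 515 and 342 without dim probe sets, 332 and 308 without the low-numbered ones, and 247 and 85 without both arrays of replicate 2. Lower calls were 309 with quantile normalization and 104 with median centring. Without 1 array the calls ran from 9 to 278 higher and from 28 to 136 lower. The 278 and the 136 both came from the fit without untreated replicate 2. Without any other single array they ran from 9 to 24 higher and from 28 to 41 lower. The cause of these changes in the counts was not tested.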

Other observations

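Other named genes of G protein signalling and lysophospholipid metabolism were picked after their values were seen. The G protein subunit Gna15, which couples receptors to phospholipase C in blood cells, rose by 1.04 ± 0.096 on the log2 scale (SE, n = 3 per group; limma adjusted p = 0.014). The beta subunit Gnb4 fell by 0.88 ± 0.068 (SE; limma adjusted p = 0.0074). The melanocortin receptor Mc1r rose by 1.03 ± 0.15 (SE; limma adjusted p = 0.044), and the prostacyclin receptor Ptgir had a log2 fold change of 0.72 without passing (limma adjusted p = 0.087).

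The picked enzymes that make or use lysophospholipids were 5, and the 24 genes of the list for lysophospholipid and S1P metabolism had no named row. Gpam, which makes LPA inside the cell from glycerol 3-phosphate, went from 11.25 ± 0.038 to 10.45 ± 0.095 (SD, n = 3 each; log2 fold change -0.80; limma adjusted p = 0.010). Of the acyltransferases that turn LPA into phosphatidic acid, Agpat3 fell (log2 fold change -0.87) and Agpat2 rose (0.73), with limma adjusted p of 0.016 and 0.023. Tmem86a, which breaks down lysoplasmalogens, rose to 10.56 ± 0.023 from an untreated 9.46 ± 0.18 (SD, n = 3 each), with a limma adjusted p of 0.011. The secreted phospholipase Pla2g2f, at a log2 fold change of 0.73, was not called (limma adjusted p = 0.14). Of the 6 fits without 1 array, Gnb4 passed in 5, Gna15, Gpam, Agpat2 and Tmem86a in 2, Agpat3 in 1 and Mc1r in 0.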
